A study of Mus musculus with 4 samples.

Results

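The 10 genes described here encode enzymes and readers of the C-terminal domain (CTD) of the largest RNA polymerase II subunit. They were taken by symbol from a table of 30282 mouse genes, and each of Cdk12, Cdk13, Ccnk, Ssu72, Ctdp1, Ctdsp1, Ctdsp2, Ctdspl, Rprd1a and Rprd1b had 1 row. The libraries came from poly(A) RNA of the mouse embryonic stem cell line V6.5, in which RPB3, a core polymerase II subunit encoded by Polr2c, is fused to a mini auxin-inducible degron and GFP (dRPB3-mAID-GFP). The IAA group (2 libraries) received doxycycline at 1 µg/ml for 12 h and then the auxin IAA at 500 µM for 12 h. The untreated group (2 libraries) received the same doxycycline and no IAA. Doxycycline induced TIR1, the plant protein that marks the tagged subunit for destruction once IAA is present, so both groups share the tag and TIR1 induction. The treatment label of each IAA sample gives 12 h, but the protocol text puts the poly(A) libraries at 1 h of RPB3 depletion, so the time in IAA is uncertain. All cells grew with CHIR99021 and PD0325901, inhibitors of GSK3 and MEK. The labels do not say whether the line is 1 clone, and no library with IAA but without the degron was analysed here.

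The CTD is a long tail of a repeated heptapeptide. Kinases add phosphate to its serines as the polymerase leaves the promoter and elongates, and phosphatases remove it so that the enzyme can be used again. CDK12 and CDK13 are elongation kinases that both pair with cyclin K, the product of Ccnk. SSU72 acts on the CTD near gene ends, FCP1 (Ctdp1) recycles the polymerase, and the small phosphatases encoded by Ctdsp1, Ctdsp2 and Ctdspl also act on SMAD proteins and on REST, a repressor of neuronal genes. RPRD1A and RPRD1B bind the phosphorylated tail and help phosphatases to it.

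Values are normalised read counts, that is, reads divided by 1 factor per library and rounded by the authors. Each library held 8724737 to 9194432 reads once the scaling was undone. The mean chi-square per gene, which sampling of reads alone would place near 1, was 1.24 between the IAA libraries and 1.41 between the untreated libraries, against 9.49 to 9.96 across groups. The labels name no separate cultures, so every p-value is set against a spread among these 4 libraries that may be technical only. Polr2c mRNA, which does not report the degraded protein, read 3242 and 3158 in the IAA libraries and 2726 and 2885 in the untreated libraries, and 18.1% of its exon bases overlap Dok4. All 7 embryonic stem cell markers were expressed and summed to 49962 and 48421 in the IAA libraries and 44070 and 45632 in the untreated libraries. They split, with Klf4, Nanog and Tfcp2l1 called higher (11.1% of all genes tested) and Pou5f1 and Zfp42 called lower (28.9%). With another library scaling (median-of-ratios factors, below) 5 were higher and 1 lower, against 20.3% and 20.5% of all genes tested. Zfp42 was not called there. Of 7 fibroblast markers, 3 had no row and Col3a1 read 0 to 2. Col1a1 (29 to 60 recovered reads) and Thy1 were called lower (28.9% of all genes tested). The authors' deposited table called no gene of this list. The 4 with a row summed to 117 and 135 in the IAA libraries and to 191 and 242 in the untreated libraries. Of 7 endoderm and trophoblast markers 4 were tested and none of these was called, while Foxa2 and Cdx2 read 0 or 1. The 7 summed to 653 and 671 in the IAA libraries and to 669 and 646 in the untreated libraries. Most of each sum was Tfap2c, at 511 and 495 in the IAA libraries and 503 and 487 in the untreated libraries. Whether these markers have any part in the results below was not tested.

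The small phosphatase genes carry a family of microRNAs within them, and those sequences are shown because the host genes moved in opposite directions (below). Mir26b lies in Ctdsp1 (chr1:74394310-74394394, plus strand), Mir26a-1 in Ctdspl (chr9:119031796-119031885, plus strand) and Mir26a-2 in Ctdsp2 (chr10:126995530-126995613, plus strand), all on GRCm38.p6 and on the strand of the host. The mature 5p bases fall in introns of all 3 hosts, although the Mir26a-2 hairpin as a whole touches an annotated exon of Ctdsp2. Capitals mark the seed, bases 2 to 8, in the RefSeq sequences written 5′ to 3′.
mmu-miR-26b-5p (Ctdsp1): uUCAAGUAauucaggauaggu
mmu-miR-26a-5p (Ctdspl and Ctdsp2): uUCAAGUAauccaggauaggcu
The seed was the same in all 3, and Ctdspl and Ctdsp2 encode the same mature miR-26a-5p. Poly(A) libraries do not measure mature microRNAs, so the values below are those of the host mRNAs.

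Of the 10 genes 5 were higher in IAA cells and a single gene was lower. In limma on log2(value + 1) over 14928 genes, with p-values adjusted over all of them and a call at an adjusted p under 0.05, Cdk12, Ctdsp1, Ctdsp2, Ctdp1 and Rprd1a rose and Ctdspl fell. All 10 members passed the filter (a mean of at least 10). That is 5 of 10 higher, where 11.1% of all genes tested were called higher, and 1 of 10 lower, where 28.9% were called lower. The median log2 fold change (IAA minus untreated) was 0.16 over the members and -0.11 over all genes tested. Both IAA values lay above both untreated values for 7 members besides the 2 that lay below, Ctdspl and Ssu72, against 22.5% of tested genes above and 45.6% below. The groups overlapped in Rprd1b.

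**Figure D1:**
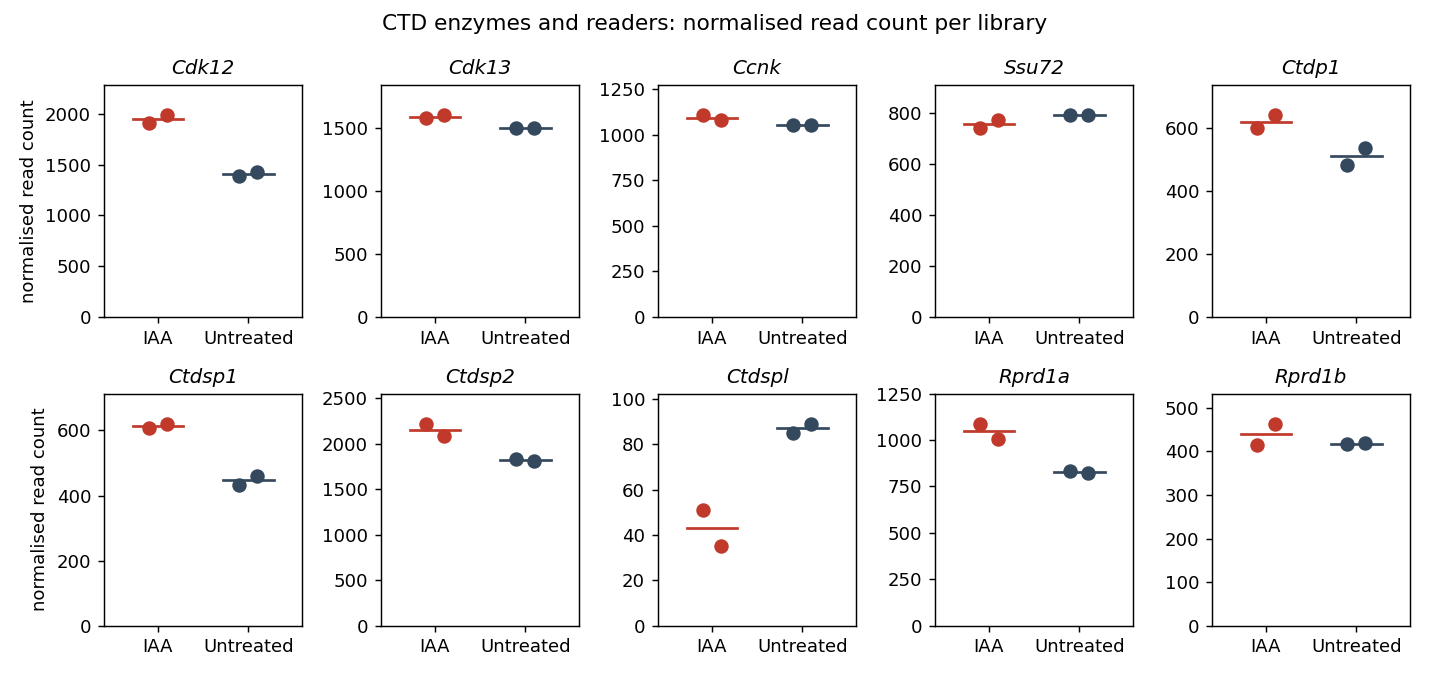
Normalised read count (y axis, from 0) of each member in the 2 IAA and the 2 untreated libraries, with points for libraries and lines for group means. Both IAA points lie above both untreated points for Cdk12, Ctdp1, Ctdsp1, Ctdsp2 and Rprd1a, and both lie below for Ctdspl, whose IAA libraries read 51 and 35.

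Library scaling turned the direction of Ssu72 alone among the members, and it moved the number of calls. The deposited factors place the median of all genes at -0.11, and median-of-ratios factors, which bring it near 0 by construction, placed it at -0.01. With those factors the 6 calls held and Cdk13 and Ccnk were also higher, giving 7 higher (background 20.3%) and 1 lower (background 20.5%). Scaling to library totals called the same 8 genes, with backgrounds of 20.7% higher and 20% lower. The 5 higher and 1 lower stood with voom on recovered reads (backgrounds 11.7% and 30%) and on unrounded values (12% and 30.5%). The authors' deposited table was stricter, with adjusted p under 0.05 for Cdk12 and Ctdsp1 alone among the members (2.47% of genes higher and 9.57% lower in it). Leaving out any 1 of the 4 libraries ended all 6 calls at the rounded values, as it did every call over all genes. The 6 log2 fold changes kept their sign. In the same fits on unrounded values they also kept their sign, and the calls stand in the last section beside those over all genes. With no filter on low values 179 of 30282 genes were higher and 638 lower. There Cdk12 alone of the members still passed (limma adjusted p = 0.0462). The limma adjusted p was 0.0503 for Ctdsp1, 0.0695 for Rprd1a, 0.0792 for Ctdsp2, 0.105 for Ctdspl and 0.14 for Ctdp1.

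**Figure D2:**
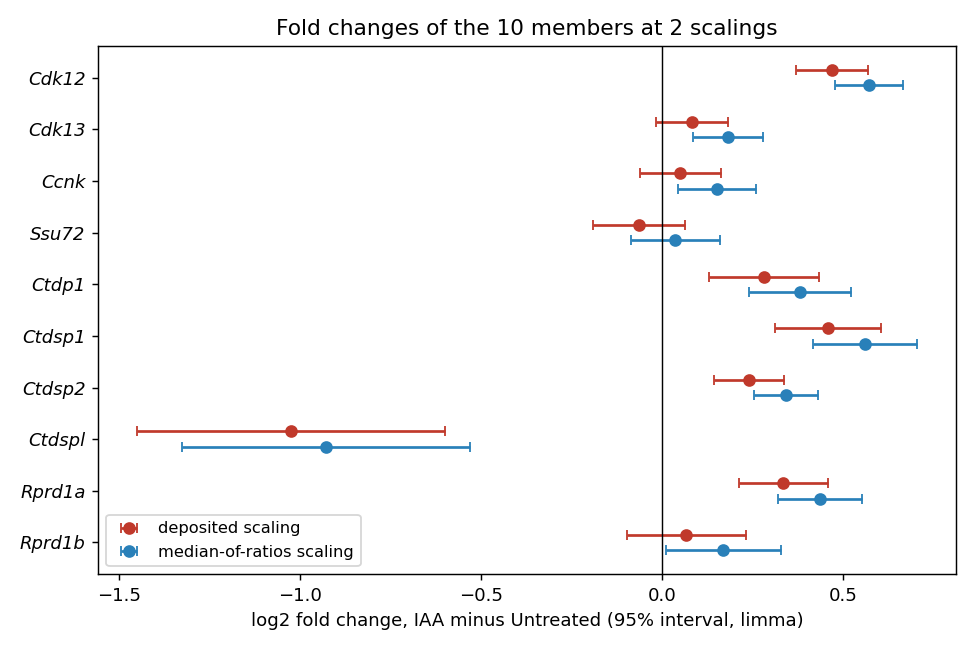
Log2 fold change (x axis, IAA minus untreated) of each member with its 95% interval from limma, at the deposited scaling (red) and with median-of-ratios factors (blue). The intervals of Cdk12, Ctdp1, Ctdsp1, Ctdsp2 and Rprd1a lie above 0 and that of Ctdspl below 0 at both scalings, while Ssu72 stands at -0.06 with the deposited scaling and at 0.04 with the other.

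Among the kinase genes Cdk12 rose, and its paralogue and shared cyclin did not pass the test. Cdk12 (ENSMUSG00000003119, chromosome 11, 98203059 to 98278504, plus strand, GRCm38) read 1912 and 1987 in the IAA libraries, against 1386 and 1425 in the untreated libraries. Its 2 groups were far apart, with means of 1949.5 ± 53.0 in IAA and 1405.5 ± 27.6 in untreated cells (SD, n = 2 each). The ratio of means was 1.39, and the log2 fold change was 0.47 with an SE of 0.05 (limma adjusted p = 2.21e-07, and 5.77e-05 in the authors' deposited table). Cdk12 had the smallest adjusted p of the members in both.

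Cdk13 (ENSMUSG00000041297, chromosome 13, 17710315 to 17805097) read 1579 and 1605 in the IAA libraries and 1500 and 1506 in the untreated libraries. The groups did not overlap but differed by 5.92%, a log2 fold change of 0.08 and a 95% interval of -0.02 to 0.18 (limma adjusted p = 0.177). With median-of-ratios factors the value was 0.18 (adjusted p = 0.00114). Ccnk (ENSMUSG00000021258, chromosome 12, 108179579 to 108203359) read 1108 and 1079 in the IAA libraries and 1055 in both untreated libraries. Its log2 fold change was 0.05, with an interval of -0.06 to 0.16 (limma adjusted p = 0.474), and it read 0.15 (adjusted p = 0.0187) under the median-of-ratios scaling.

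A ratio taken within a library does not depend on the library's scaling. Per kilobase of exon, Cdk12 stood at 1.39 and 1.42 times Cdk13 in the IAA libraries, and at 1.06 and 1.09 times in the untreated libraries. The ratio of Cdk12 to Ccnk was 0.448 and 0.478 in the IAA libraries and 0.341 and 0.350 in the untreated libraries. Neither ratio overlapped between groups, and the log2 differences were 0.39 and 0.42. How often ratios of other gene pairs separate in this way was not computed. Of single genes tested, both IAA values lay above both untreated values in 22.5% and below them in 45.6%. The rise of Cdk12 is part of both ratios. An exact two-sided permutation test over 2 against 2 libraries cannot go below p = 0.333, which is the value for all 6 ratios computed, before and after adjustment.

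Of the FCP1 and SSU72 genes, Ctdp1 rose and Ssu72 did not pass. Ctdp1 (ENSMUSG00000033323, chromosome 18, 80407959 to 80469695) read 601 and 642 in the IAA libraries, against 485 and 538 in the untreated libraries. Its lowest IAA value stood above its highest untreated value. The log2 fold change was 0.28 (SE 0.07; limma adjusted p = 0.0042; 0.245 in the authors' deposited table). Ssu72 (ENSMUSG00000029038, chromosome 4, 155704800 to 155733879) read 739 and 773 in the IAA libraries and 789 and 790 in the untreated libraries. Both IAA values were lower, with a log2 fold change of -0.06 (interval -0.19 to 0.06; limma adjusted p = 0.438), which became 0.04 with median-of-ratios factors. Its exon bases overlap an antisense gene over 15.1% and those of Ctdp1 over 8.98%. The strand setting of the counting is not given in the sources used here, so reads from such overlaps cannot be told apart.

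The 3 small phosphatase genes split, with Ctdsp1 and Ctdsp2 higher and Ctdspl lower. Ctdsp1 (ENSMUSG00000026176, chromosome 1, 74391509 to 74397285) read 608 and 620 in the IAA libraries, against 433 and 460 in the untreated libraries. Its means were 614.0 ± 8.49 in IAA and 446.5 ± 19.1 in untreated cells (SD, n = 2 each). The log2 fold change was 0.46 (SE 0.07; limma adjusted p = 3.38e-05; 0.0349 in the authors' deposited table). Ctdsp1 thus showed a rise of nearly the size seen for Cdk12.

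Ctdsp2 (ENSMUSG00000078429, chromosome 10, 126978717 to 126999975), the member with the highest read counts, had 2216 and 2087 in the IAA libraries and 1831 and 1805 in the untreated libraries. The groups did not overlap, and the log2 fold change was 0.24 (SE 0.05; limma adjusted p = 0.000324; 0.0626 in the authors' deposited table). Of its 50-base stretches 12.5% also occur in transcripts of other genes, chiefly the processed pseudogene Gm9770, so part of its count may be shared. For Ctdsp1 that share was 7.24%, and for Ctdspl it was 0.

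Ctdspl (ENSMUSG00000047409, chromosome 9, 118926453 to 119043998) read 51 and 35 in the IAA libraries, against 85 and 89 in the untreated libraries. The IAA mean of 43.0 ± 11.3 was 0.494 times the untreated mean of 87.0 ± 2.83 (SD, n = 2 each). The log2 fold change was -1.02 (SE 0.20; limma adjusted p = 0.000473), the largest in size of the set, but the authors' deposited table gave an adjusted p of 0.114. Few reads lay behind it. The recovered reads were 50 (95% exact Poisson interval 37.1 to 65.9) and 33 (22.7 to 46.3) in the IAA libraries, against 75 (59.0 to 94.0) and 77 (60.8 to 96.2) in the untreated libraries, intervals that cover counting error only. Divided by the deposited factors, the interval of the first IAA library ended at 67.3 normalised reads and that of the second at 48.8, while those of the untreated libraries began at 67.0 and 69.8. In bulk RNA, fewer cells with a transcript and less of it per cell cannot be told apart.

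Within a library the balance of the 3 phosphatase mRNAs differed between groups. Per kilobase, Ctdspl made up 1.66% and 1.18% of the summed level of the 3 in the IAA libraries, against 3.43% and 3.56% in the untreated libraries. The ratio of Ctdspl to Ctdsp2 was 0.0245 and 0.0179 in the IAA libraries and 0.0494 and 0.0525 in the untreated libraries, a log2 difference of -1.28. That of Ctdsp1 to Ctdsp2 was 0.455 and 0.492 in the IAA libraries and 0.392 and 0.422 in the untreated libraries, a log2 difference of 0.22. Neither ratio overlapped between groups, but how often ratios of other gene pairs separate in this way was not computed. Ctdspl was called lower and Ctdsp2 higher, so the separation of their ratio restates those calls.

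**Figure D3:**
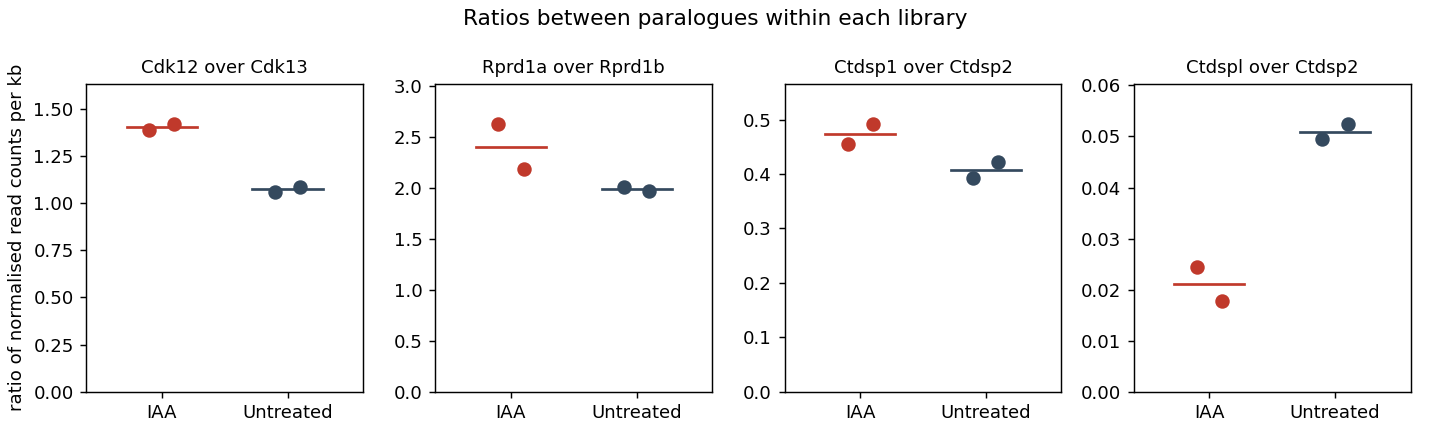
Ratio of normalised read counts per kilobase of exon (y axis, from 0) between paralogues in each of the 2 IAA and 2 untreated libraries, with lines for group means. The ratio of Cdk12 to Cdk13 averages 1.40 in IAA and 1.07 in untreated libraries, and that of Ctdspl to Ctdsp2 averages 0.0212 in IAA and 0.0510 in untreated libraries.

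The bases upstream of the 3 phosphatase genes are shown for comparison, because the hosts of a shared microRNA seed moved apart. Each line gives the 100 bases before the GENCODE start of the gene, on the plus strand of GRCm38.p6 from RefSeq's sequence, with matches on either strand in capitals to the TATA box (TATAAA), the CAAT box (CCAAT) or the GC box (GGGCGG).
Ctdsp1, chr1:74391409-74391508: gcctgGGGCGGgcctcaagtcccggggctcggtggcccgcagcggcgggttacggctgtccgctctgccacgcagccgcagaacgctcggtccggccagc
Ctdsp2, chr10:126978617-126978716: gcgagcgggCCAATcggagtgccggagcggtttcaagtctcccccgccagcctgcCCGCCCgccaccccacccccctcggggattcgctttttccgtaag
Ctdspl, chr9:118926353-118926452: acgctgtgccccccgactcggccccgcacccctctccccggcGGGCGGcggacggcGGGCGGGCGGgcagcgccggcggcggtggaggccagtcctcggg
All 3 windows hold the GC box, which occurs 3 times in Ctdspl (with 2 copies that overlap) and 1 time each in Ctdsp1 and Ctdsp2. It was present in 25.2% of the 27025 windows of the same length before RefSeq start sites. CCAAT was found in Ctdsp2 alone of the 3 (19.6% of all windows) and TATAAA in none (5.95% of all windows). CpG dinucleotides numbered 13 in Ctdsp1, 11 in Ctdsp2 and 17 in Ctdspl, against a median of 3 over all windows. The window of Ctdspl also overlaps an exon of the antisense gene Gm2415.

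Of the paired CTD readers, Rprd1a rose and Rprd1b did not pass. Rprd1a (ENSMUSG00000040446, chromosome 18, 24484960 to 24530204) read 1087 and 1006 in the IAA libraries, against 831 and 825 in the untreated libraries. Both IAA values were higher, and the log2 fold change was 0.34 (SE 0.06; limma adjusted p = 0.000129; 0.0535 in the authors' deposited table). Rprd1b (ENSMUSG00000027651, chromosome 2, 158028497 to 158132297) read 415 and 463 in the IAA libraries and 416 and 420 in the untreated libraries. Its groups overlapped, and the log2 fold change was 0.07 with an interval of -0.10 to 0.23 (limma adjusted p = 0.523). The per-kilobase ratio of Rprd1a to Rprd1b was 2.63 and 2.18 in the IAA libraries and 2.01 and 1.97 in the untreated libraries. Exon bases of Rprd1b overlap genes on the other strand, Tgm2 among them, over 7.69%.

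The order of mean levels per kilobase of exon was similar in both groups, but Ctdsp2 and Ccnk changed places, as did Cdk12 and Ctdp1. In IAA cells Ctdsp2 was highest at 389 ± 16.5 normalised reads per kilobase, followed by Ccnk at 359 ± 6.74 and Ssu72 at 281 ± 8.94 (SD, n = 2). In untreated cells Ccnk stood at 347, Ctdsp2 at 329 ± 3.33 and Ssu72 at 294 ± 0.263. Ctdsp2 therefore stood above Ccnk in both IAA libraries and below it in both untreated libraries. A middle group followed in IAA cells, with Ctdsp1 at 184 ± 2.55, Cdk12 at 166 ± 4.52, Rprd1a at 162 ± 8.86, Ctdp1 at 159 ± 7.41 and Cdk13 at 118 ± 1.37. Cdk12, Rprd1a and Ctdp1 did not differ beyond their spread there.

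In untreated cells the same 5 genes lay within a narrow band, with Ctdsp1 at 134 ± 5.73, Ctdp1 at 131 ± 9.58, Rprd1a at 128 ± 0.656, Cdk12 at 120 ± 2.35 and Cdk13 at 112 ± 0.315. The values of Ctdp1 overlapped those of both Ctdsp1 and Rprd1a, while both values of Ctdsp1 lay just above both of Rprd1a. Rprd1b came next, at 67.5 ± 5.22 in IAA and 64.3 ± 0.435 in untreated cells, and Ctdspl was lowest, at 8.29 ± 2.18 in IAA and 16.8 ± 0.545 in untreated cells. The least expressed member was thus also the only one called lower, though both IAA values of Ssu72, among the 3 highest, lay below its untreated values too. Exon length here is the union of all annotated exons, so a gene that uses few of them is understated.

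**Figure D4:**
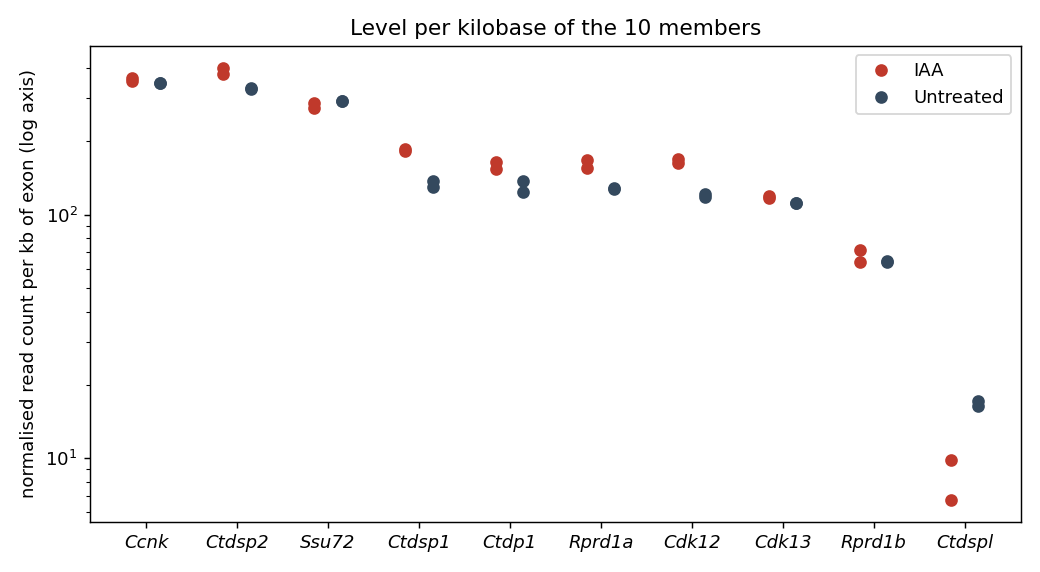
Normalised read count per kilobase of exon (y axis, log scale) of the 10 members in the 2 IAA and 2 untreated libraries, ordered by the untreated mean. Ccnk, Ctdsp2 and Ssu72 stand highest, 6 genes follow, and Ctdspl stands lowest at 6.74 to 17.1.

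Other genes of CTD phosphorylation, listed with earlier results of these data known, moved in both directions. Of 35 listed, all were tested, 8 were higher and 11 lower, with a median log2 fold change of -0.00477, against -0.11 over all genes tested. The share over all genes tested was 11.1% higher and 28.9% lower, so the count lower is near the background. With median-of-ratios factors they were 14 higher and 6 lower (background 20.3% and 20.5%), so the split depends on scaling. Counts with 1 library left out also differed, and they stand in the last section beside those over all genes.

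Among 11 other kinases and partners, 1 was higher and 5 were lower, which became 1 and 2 with median-of-ratios factors. Over all genes tested 11.1% were higher and 28.9% lower, and 20.3% and 20.5% with those factors. Mnat1, which assembles the CDK7 kinase of TFIIH, read 305 and 299 in the IAA libraries and 456 and 471 in the untreated libraries (log2 fold change -0.62, SE 0.08; limma adjusted p = 4.41e-06). Cdk8, the Mediator kinase, fell by 0.39 and Cdk7 by 0.26 on the log2 scale, and Cdk7 was not called with median-of-ratios factors. Dyrk1a, a kinase that can phosphorylate the CTD, rose by 0.34. In the authors' deposited table Dyrk1a (adjusted p = 0.0554) and Cdk7 (0.307) were not called. Cdk9, the pause-release kinase, read 683 and 677 in the IAA libraries and 664 and 815 in the untreated libraries and did not pass. Cdk9 was named after its values were seen.

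Among 12 other phosphatases and relatives, 2 were higher and 4 lower, which became 7 higher and 2 lower with median-of-ratios factors. The first pair of counts is close to the background of 11.1% and 28.9%, and the second stands beside 20.3% and 20.5%. Ppp1r10, the nuclear targeting subunit of protein phosphatase 1, read 893 and 853 in the IAA libraries and 594 and 560 in the untreated libraries. Its log2 fold change, 0.60 (SE 0.06; limma adjusted p = 4.39e-07), exceeded that of each of the 5 members that rose. Rpap2, a CTD phosphatase that also serves polymerase import, fell by 0.50, Ublcp1, a phosphatase of the nuclear proteasome, fell by 0.48 and Wdr82, a partner of Ppp1r10's product, fell by 0.18 on the log2 scale. Wdr82 was not called with median-of-ratios factors. In the authors' deposited table Rpap2 (adjusted p = 0.104) and Wdr82 (0.244) were not called.

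Among 12 other CTD readers, 5 were higher and 2 lower (background 11.1% and 28.9%), and 6 and 2 with median-of-ratios factors (20.3% and 20.5%). Recql5, a helicase that binds the polymerase, fell by 0.37 on the log2 scale. Scaf8 rose by 0.36 and Setd2, a histone methyltransferase, by 0.34. Their adjusted p in limma ran from 2.61e-06 (Setd2) to 0.00101 (Recql5), but Recql5 was not called in the authors' deposited table (adjusted p = 0.178).

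The 4 repair genes listed here were all lower after IAA, while Cdk12 mRNA was higher. They are among the genes known in human cells to lose expression when CDK12 is depleted. The 4 were chosen with earlier results of these data known and are not a complete set. Atr, a checkpoint kinase gene, read 610 and 606 in the IAA libraries, against 1205 and 1074 in the untreated libraries (log2 fold change -0.90, SE 0.06; limma adjusted p = 2.56e-09). Fanci read 503 and 521 in the IAA libraries and 852 and 913 in the untreated libraries (-0.78, SE 0.07), and Fancd2 961 and 906 in the IAA libraries and 1622 and 1505 in the untreated libraries (-0.74, SE 0.06). Both encode paired proteins of the Fanconi pathway. Brca1, a recombination gene, read 1708 and 1828 in the IAA libraries and 2240 and 2256 in the untreated libraries (-0.35, SE 0.05). All 4 were also called lower with median-of-ratios factors and in the authors' deposited table. Of all genes, 28.9% were called lower, 20.5% with median-of-ratios factors and 9.57% in the deposited table. CDK12 protein and kinase activity were not measured, and a relation between the gene and these 4 mRNAs was not tested.

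Among 4 genes of CTD phosphatase substrates, 3 were higher and 1 lower (background 11.1% and 28.9%). Polr2a, which encodes the CTD itself, read 12035 and 12286 in the IAA libraries and 10073 and 9868 in the untreated libraries (log2 fold change 0.29, SE 0.03). Smad1, a BMP signal transducer, rose by 0.31 and Rest by 0.13, while Rb1, the retinoblastoma gene, read 162 and 149 in the IAA libraries and 227 and 191 in the untreated libraries (-0.42, SE 0.12). The limma adjusted p ran from 3.26e-07 to 0.00786, and all 4 calls held with median-of-ratios factors (background 20.3% and 20.5%). The authors' deposited table called Polr2a alone of the 4.

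**Figure D5:**
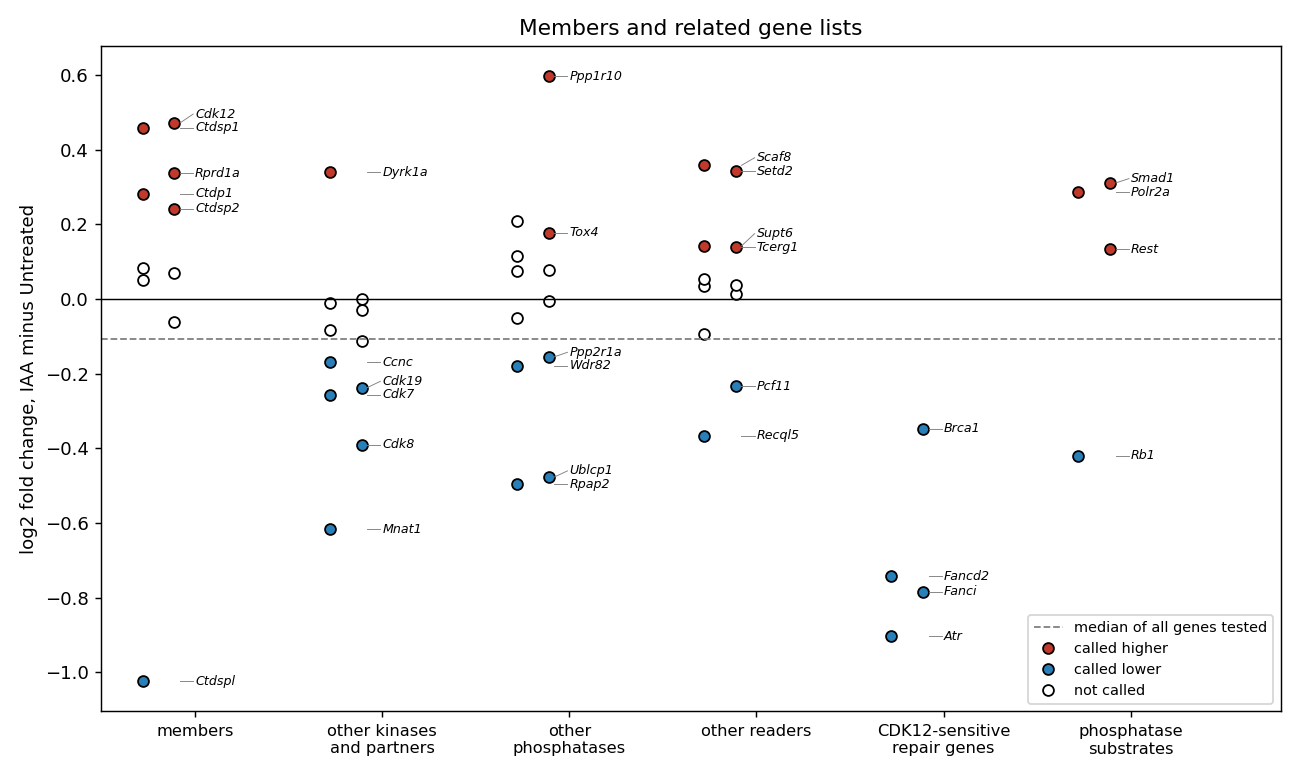
Log2 fold change (y axis, IAA minus untreated) of the 10 members and of the 5 related lists, each point a gene, red if called higher, blue if called lower and white if not called in limma, with 1 reader not shown. The dashed line is the median of all genes tested, -0.11, and the 4 repair genes lie between -0.90 and -0.35, all below it.

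The genes whose 4 values were most like those of Ctdspl, the member with the largest change, were Odad4, Dynlt2b, Sowaha and Plin5. Likeness was the Euclidean distance between log2 values centred on each gene's mean over 4 libraries, and it was 0.0326, 0.0531, 0.0584 and 0.0944 in that order. Dynlt2b, the most abundant of them, read 154 and 109 in the IAA libraries and 249 and 264 in the untreated libraries. With 4 libraries in 2 groups such a likeness describes little beyond the size of the group difference.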

How the data were processed

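All values come from 1 table with 30282 gene rows. Per the submitters' processing notes, the builds were mm10 and dm6, and the tools included DESeq2, featureCounts, STAR, Bowtie2, cutadapt 1.18, deepTools and SAMtools, with no statement of what each did. Which annotation, strand setting and scaling method were used was not given in the sources used here. For each library the authors deposited 1 score column, which the values show to be reads over a library factor, rounded to whole numbers. The deposited mean is a signal, their unrounded mean. From it the factors came out as 0.98 and 0.95 (IAA) and 0.88 and 0.87 (untreated), and reads rebuilt with them matched the deposited mean to within 0.001 in 100% of genes (largest difference 5.0e-06). The authors also deposited DESeq2's log2 fold change, Wald score, p-values and adjusted p-values, per the file headers. Mouse rows only were used, so the Drosophila spike-in was not analysed.

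The test was limma (version 3.58.1, run in R 4.3.3) on log2(value + 1), over the 14928 genes whose mean reached 10 (empirical Bayes with a trend, two-sided, Benjamini-Hochberg over all genes tested). Fold changes are on that scale, which understates low genes. Calls were made at an adjusted p under 0.05. The fit was tested on simulated data. Tables were handled with pandas 2.3.3 in Python 3.11.15. Positions, exons and overlaps were read from GENCODE M21 (GRCm38, which is mm10). Stretches of 50 bases shared with other transcripts were counted on both strands. All 10 members matched by symbol, and the listed Supt6h was matched to Supt6 by synonym.

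The members and lists were chosen with earlier results of these data known. Named genes were the 10 members, Polr2c, from each related list up to 4 called genes by size of change (where none was called, the 2 most expressed), and the 4 genes most like the member of largest change, leaving out predicted genes, clones and pseudogenes. Of the listed readers 1 gene that the rule names is not reported here, though the list's counts include it. Alternatives were pseudocounts of 0.5 and 5, a minimum mean of 0 or of 100, median-of-ratios factors, library totals, limma's voom on recovered reads, the authors' own tests, each library left out, and the replicate number as a block. Fits on unrounded values were added after seeing the data. Where 1 library was left out, the remaining one of its group was taken to have the spread of the intact group.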

Additional observations from a re-analysis of the deposited data

How the results depend on the processing

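The 6 calls among the members, and the counts of 1650 genes higher and 4312 lower in all, kept to within 1.5 times under both pseudocounts, voom on recovered reads, unrounded values and the replicate block, which gave 1647 higher and 4311 lower in all and changed no call among the members. No pairing by replicate number was visible, since deviations of the same-numbered libraries from their group means correlated at 0.00153 over genes. The labels do not say whether the libraries were paired. With no filter on low values 6 members were higher and 1 lower at an unadjusted limma p under 0.05, against 2743 and 5130 of 30282 genes. At an adjusted p under 0.05, 179 genes were higher and 638 lower. Of the members 1 was higher and 0 lower, and of the other CTD genes 4 were higher and 2 lower. The same on unrounded values gave 623 and 1919 genes, 4 and 0 members, and 4 and 5 other CTD genes. At a mean of at least 100, 0 members were lower because Ctdspl was no longer tested. Median-of-ratios factors gave 3037 genes higher and, of the other CTD genes, 14 higher and 6 lower. Library totals gave 3083 genes higher and 15 and 5 of the other CTD genes. With both factors Ssu72 turned round, to 0.04 on the log2 scale (0.0379 and 0.0416). The authors' deposited table gave 284 genes higher and 1100 lower, 2 members higher and 0 lower, and 3 and 3 of the other CTD genes.

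Leaving out 1 library at the rounded values left 0 calls by limma in either direction, among the members, the other CTD genes and all genes, where 1091 to 1588 genes were higher and 3330 to 3682 lower at an unadjusted p under 0.05. There 372 genes in the IAA group and 361 in the untreated group have equal rounded values in both libraries, and thus no spread at 1 residual degree of freedom. On unrounded values the same fits gave 1146 to 1608 genes higher and 3471 to 3939 lower, 5 members higher and 1 lower each time, and 5 to 8 higher and 8 to 12 lower of the other CTD genes. Rprd1b ran between -0.0104 (without the second IAA library) and 0.147 at rounded values, and between -0.0083 and 0.149 at unrounded values. The range over these fits for Ctdspl was -1.30 to -0.76. Precision is limited by 2 libraries per group and, for Ctdspl, by 33 to 77 reads per library. Where the text gives no cause for a lost call, the cause was not tested.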
